A study of Mus musculus with 11 samples.

Results

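Cell lines from mouse liver tumours that carry 1 of 3 activated Hippo pathway effectors were compared by sequencing of polyA RNA. The question was which genes set TAZ-S89A lines apart from YAP lines whichever YAP mutant was used. All 11 of the 11 libraries of the series entered: 5 with TAZ-S89A, 3 with YAP-S127A and 3 with YAP-S5A, a mutant that the series text spells YAP-5SA. TAZ-S89A was set against the mean of both YAP groups, with the same weight for each. A gene was taken as separated when every TAZ-S89A library lay above, or every one lay below, all 6 YAP libraries in CPM, reads of a gene relative to its library's total, with TMM correction for composition. Of 18224 genes tested, 5112 (28.1%) were separated, 2203 of them higher (12.1%) and 2909 lower (16.0%) in TAZ-S89A.

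TAZ (encoded by Wwtr1) and YAP (encoded by Yap1) are related transcriptional coactivators that act through the DNA-binding TEAD factors. LATS kinases of the Hippo pathway phosphorylate both, which keeps them out of the nucleus and marks them for degradation. The serine-to-alanine mutants escape at least part of this control, which need not be the same part in each mutant. Active YAP or TAZ drives growth of liver and bile duct cells and liver tumours in mice. All 3 groups carry such a mutant, and no group without one was analysed here, so every value is a difference between mutants. The labels name the tissue, the mutation and a sample ID. They give no strain, age or promoter behind each mutant, and leave unsaid which libraries share a tumour, a line or a culture. Each p-value thus measures only how far these libraries vary, possibly for technical reasons. The mutant cannot be told apart from the identity of the lines.

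Total counts ran from 20071144 to 49159713 per library, and the shallowest were TAZ-S89A libraries 4 and 5, which carry sample IDs of a second number series. Libraries 1 and 2 and libraries 4 and 5 of TAZ-S89A formed close pairs. Their chi-square per degree of freedom over genes was 5.63 and 2.01. It was 101 to 218 for the other TAZ-S89A pairs and 296 to 678 between groups. Within the YAP groups it ran from 6.34, for YAP-S127A libraries 1 and 2, to 131. It was 15.6 both for YAP-S127A libraries 2 and 3 and for YAP-S5A libraries 1 and 3, so YAP pairs could be close too. The measure grows with depth, which favours a low value for the shallowest pair. The libraries of a close pair may share a source, which the labels do not give. Defining hepatocyte markers did not match the liver label: Alb was at 0 to 0.0223 CPM in TAZ-S89A and at most 1.31 CPM elsewhere, and 7 of 12 hepatocyte markers were under 1 CPM in all 11 libraries. Summed over that list, TAZ-S89A held 4.51 to 5.91 CPM, YAP-S127A 108 to 122 CPM and YAP-S5A 734 to 818 CPM, and most of the YAP signal was Apob. Endothelial markers summed to at most 11.2 CPM and macrophage markers to at most 65.6 CPM in any library. Stellate cell and fibroblast markers summed to 1816 to 3443 CPM in TAZ-S89A, between 281 to 380 CPM in YAP-S5A and 5916 to 6432 CPM in YAP-S127A, and most of the TAZ-S89A sum was 1 gene, Col1a2 (1500.4 to 3056 CPM). In bulk RNA, fewer cells of a type and less RNA per cell cannot be told apart. The part of cell type makeup in the results was not tested. Biliary markers summed to 1765 to 3668 CPM in TAZ-S89A, 467 to 591 CPM in YAP-S127A and 2723 to 4276 CPM in YAP-S5A. The TAZ-S89A sum was nearly all Spp1 (1669 to 3586 CPM), whereas the biliary keratins Krt7 (0.876 to 2.49 CPM) and Krt19 (4.32 to 9.92 CPM) lay below both YAP groups and made up most of the YAP-S5A sum.

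Counts were tested with edgeR's quasi-likelihood test and Benjamini-Hochberg adjustment over all 18224 genes, which is the source of every adjusted p given. At an adjusted p under 0.05 it called 10699 genes (58.7%), of which 5133 (28.2%) were higher in TAZ-S89A and 5566 (30.5%) were lower. Among them, 2193 were called higher and also separated (12% of genes tested), and 2901 were called lower and separated (15.9%). Separation was often narrow. The gap, the difference in log2 CPM (prior count 2) between the nearest TAZ-S89A and YAP libraries, had a median of 0.34 among the genes higher and 0.62 among the genes lower. A gap of at least 1, which is 2-fold, was reached by 441 genes higher (2.42%) and 1070 lower (5.87%), and a gap of at least 4 by 29 and 186. The median log2 fold change was 1.11 among the 2193 genes higher and -1.94 among the 2901 lower, beside -0.01 over all genes tested, so losses were both more frequent and larger. That balance depended on the scaling: genes higher were 43.1% of those separated and called, and 58.8% with library totals only, which moved the median of all genes to 0.22. Of the genes lower, 319 had 3 counts or fewer over all 5 TAZ-S89A libraries, and 125 had none. Of the genes higher, 39 had 3 counts or fewer over the 6 YAP libraries, and 9 had none. The call against each YAP group alone also passed for 2013 of the 2193 and 2746 of the 2901. Over all genes, 57.6% were called against YAP-S127A (27.0% higher, 30.6% lower) and 57.9% against YAP-S5A (26.9% higher, 31.0% lower). Genes picked for separation from all 6 YAP libraries mostly pass these calls by that choice, so the excess is no added support. The YAP groups themselves differed in 10062 genes (55.2%, with 28.2% higher and 27.0% lower in YAP-S5A), about as often as TAZ-S89A differed from either. They lay within 0.5 log2 of each other for 1153 of the separated genes higher (52.6%) and 1212 lower (41.8%), beside 39.0% of all genes tested.

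The demand that no TAZ-S89A library overlap any YAP library removed 5605 called genes. Of these, 4354 differed the same way from 1 YAP group and were not called against the other, 438 were called in opposite directions, and 730 were called the same way against both YAP groups and failed on overlap of single libraries. Fstl1, a secreted follistatin-like protein, measured 99.8, 83.7, 164, 99.9 and 92.7 CPM in TAZ-S89A libraries 1 to 5, 497, 567 and 711 CPM in YAP-S127A and 1.18, 1.65 and 0.702 CPM in YAP-S5A. TAZ-S89A stood between the YAP groups, far above YAP-S5A and well below YAP-S127A, although the averaged contrast was called (log2 fold change of 2.03 ± 0.23 SE, edgeR adjusted p = 3.53e-06). Rbms3, an RNA-binding protein counted among the TEAD targets, stood between them in the same way, with 5.31, 5.48, 3.91, 5.38 and 5.3 CPM in TAZ-S89A libraries 1 to 5, 30.2, 27.7 and 28.3 CPM in YAP-S127A and 0.0802, 0.119 and 0.121 CPM in YAP-S5A. At the limit itself, the nearest libraries of Nup155 (inside, higher) and Cpne8 (outside, higher) lay next to each other, Nup155 with a log2 fold change of 0.49 and Cpne8 with 1.54. The same held for Clns1a (-1.02, inside, lower) and Haus1 (-0.64, outside, lower).

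The coactivators and their DNA-binding partners were read first. Yap1 measured 55.3, 50.8, 66.02, 82.3 and 78.05 CPM in TAZ-S89A libraries 1 to 5, 209, 197 and 185 CPM in YAP-S127A and 162, 173 and 179 CPM in YAP-S5A. All 5 TAZ-S89A libraries were below all 6 YAP libraries, with a log2 fold change of -1.47 ± 0.15 SE, edgeR adjusted p = 1.07e-06. Wwtr1, the gene of the TAZ protein itself, measured 69.2, 67.2, 86.8, 96.3 and 91.9 CPM in TAZ-S89A libraries 1 to 5, 65.8, 65.3 and 68.2 CPM in YAP-S127A and 130.5, 152 and 139 CPM in YAP-S5A, so TAZ-S89A overlapped YAP-S127A and lay below YAP-S5A, and it was not called (log2 fold change of -0.23 ± 0.12 SE, edgeR adjusted p = 0.115). Gene-level counts do not separate an introduced transcript from the cell's own, so neither value checks the label. Tead1 measured 125, 114, 78.03, 125 and 126 CPM in TAZ-S89A libraries 1 to 5, 422, 392 and 356 CPM in YAP-S127A and 245, 203 and 264 CPM in YAP-S5A and was lower throughout in TAZ-S89A (log2 fold change of -1.42 ± 0.16 SE, edgeR adjusted p = 3.71e-06). Tead2 went the other way, with 83.5, 88.8, 93.1, 99.4 and 100.4 CPM in TAZ-S89A libraries 1 to 5, 66.8, 67.5 and 63.7 CPM in YAP-S127A and 42.2, 37.5 and 40.8 CPM in YAP-S5A. Tead2 thus differed by a log2 fold change of 0.85 ± 0.09 SE, edgeR adjusted p = 2.8e-06. Tead3 overlapped with opposite differences against the YAP groups, and Tead4 overlapped YAP-S5A. Tead1 and Tead2 both lie on chromosome 7, where the median gene was shifted down in TAZ-S89A by a log2 fold change of -0.61.

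The angiomotins, scaffold proteins that hold YAP and TAZ at junctions and in the cytoplasm, were all 3 lower. Amotl1 measured 42.4, 41.2, 29.98, 48.5 and 44.95 CPM in TAZ-S89A libraries 1 to 5, 273, 275 and 247 CPM in YAP-S127A and 227, 173 and 243 CPM in YAP-S5A. No library overlapped, and the lowest YAP library was 3.56-fold above the highest of TAZ-S89A (log2 fold change of -2.53 ± 0.16 SE, edgeR adjusted p = 7.86e-09). Amotl2 measured 303, 288, 266, 246 and 250.3 CPM in TAZ-S89A libraries 1 to 5, 714, 695 and 639.9 CPM in YAP-S127A and 878, 647 and 912 CPM in YAP-S5A (log2 fold change of -1.46 ± 0.16 SE, edgeR adjusted p = 2.7e-06), while Amot was separated by only 1.05-fold. Amotl1 and Amotl2 lie on chromosome 9, also shifted down (median -0.60). With the median of each chromosome taken out, and with upper-quartile factors or library totals only, Amotl1 and Amotl2 kept their separation and call and Amot lost it.

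Of 22 TEAD target genes, 11 were lower (50%) and 2 higher (9.09%) and separated, beside 15.9% and 12% of all genes tested. Their median log2 fold change was -0.58, beside -0.01 over all genes tested. Ccn2, a matricellular growth regulator widely used as a readout of YAP and TAZ, measured 162, 148, 213, 321 and 327 CPM in TAZ-S89A libraries 1 to 5, 726, 695 and 703 CPM in YAP-S127A and 639, 616 and 647 CPM in YAP-S5A. TAZ-S89A libraries 1 to 3 were lowest, libraries 4 and 5 higher than these, and the 6 YAP libraries higher again (log2 fold change of -1.52 ± 0.23 SE, edgeR adjusted p = 5.85e-05). Its relative Ccn1 measured 212, 195, 259, 299.8 and 303 CPM in TAZ-S89A libraries 1 to 5, 383, 352 and 349.6 CPM in YAP-S127A and 542, 481 and 538 CPM in YAP-S5A and was separated by 1.15-fold (log2 fold change of -0.77 ± 0.16 SE, edgeR adjusted p = 0.000881), a separation it lost with library totals only. Ptpn14, Crim1 and Dock5 were also lower and separated. So were Axl, a receptor tyrosine kinase, and the adaptor Ajuba, but both lost this with library totals only and with chromosome medians taken out, where Ajuba turned to a log2 fold change of 0.055. Nt5e, the ectoenzyme that makes adenosine, showed the widest gap of the lower targets, with 1.44, 1.36, 2.0, 1.88 and 1.29 CPM in TAZ-S89A against 16.3, 15.6 and 17.97 CPM in YAP-S127A and 10.4, 18.4 and 11.7 CPM in YAP-S5A. Ankrd1, a muscle-type ankyrin repeat cofactor, was slightly higher, with 292, 286, 294, 284 and 284 CPM in TAZ-S89A libraries 1 to 5, 259, 248 and 251 CPM in YAP-S127A and 129, 128 and 138 CPM in YAP-S5A. Its TAZ-S89A libraries sat just above YAP-S127A and further above YAP-S5A (log2 fold change of 0.66 ± 0.11 SE, edgeR adjusted p = 0.000187). Fjx1, a secreted protein of the Fat and Dachsous polarity system, was the clear exception, with 23.8, 24.8, 27.7, 29.2 and 35.02 CPM in TAZ-S89A libraries 1 to 5, 4.1, 3.08 and 4.28 CPM in YAP-S127A and 2.35, 2.72 and 2.69 CPM in YAP-S5A. Its lowest TAZ-S89A library was 5.56-fold above the highest YAP library. With chromosome medians taken out 8 of the 11 kept their call and separation and Ankrd1 lost its own, and with library totals only 6 of the 11 did.

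**Figure D1:**
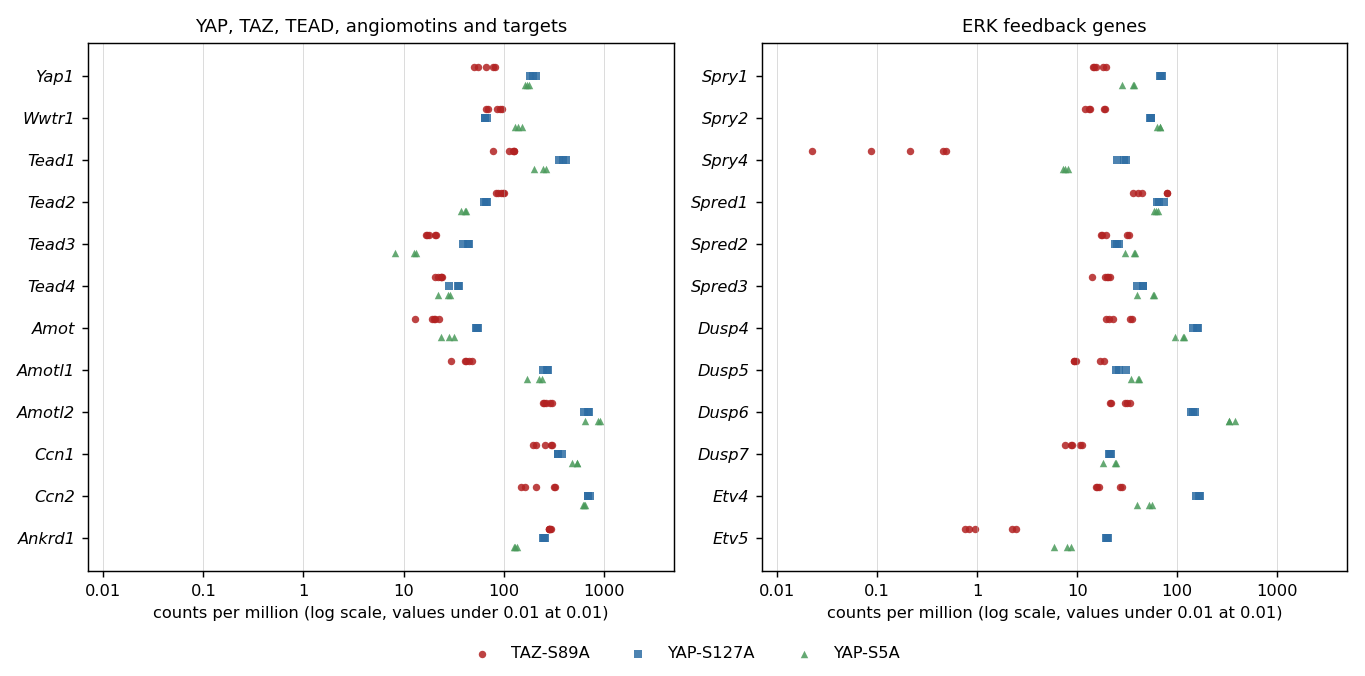
Level of each library in CPM on a log axis for regulators and readouts of YAP and TAZ (left) and for genes of the ERK feedback loop (right), with TAZ-S89A as circles, YAP-S127A as squares and YAP-S5A as triangles. Yap1, Tead1, the angiomotins, Ccn1 and Ccn2 lie lower in all 5 TAZ-S89A libraries than in any YAP library, Tead2 and Ankrd1 lie higher, and 8 of the 10 feedback inhibitors on the list are lower (Spred1 and Spred2 overlap).

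The widest losses left genes of moderate abundance in both YAP groups close to undetected in TAZ-S89A. Gulp1, an adaptor for the engulfment of dying cells, measured 0.0708, 0.0669, 0, 0 and 0.0417 CPM in TAZ-S89A libraries 1 to 5, 69.7, 69.7 and 92.96 CPM in YAP-S127A and 60.5, 81.97 and 52.3 CPM in YAP-S5A. Its TAZ-S89A libraries held 0 to 3 counts each, the lowest YAP library was 738-fold above the highest of these, and the YAP groups were not called apart (log2 fold change of -10.64 ± 0.31 SE, edgeR adjusted p = 6.72e-12). Hexa, a lysosomal beta-hexosaminidase subunit, measured 0.0708, 0.111, 0.174, 0.0815 and 0 CPM in TAZ-S89A libraries 1 to 5, 70.6, 73.01 and 89.6 CPM in YAP-S127A and 108, 159 and 96.4 CPM in YAP-S5A. It overlaps Tmem202, which had no count in any TAZ-S89A library and was at least 586-fold lower when 3 counts for the whole group are taken as the floor, and the reads of the pair cannot be told apart because the strand setting is not given. Adm, the vasodilator peptide adrenomedullin, had 1 count in all of TAZ-S89A against 21.6, 22.7 and 25.7 CPM in YAP-S127A and 87.2, 98.1 and 81.4 CPM in YAP-S5A, a ratio of pooled counts of 9777-fold (95% counting interval 1754 to 386201).

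Other genes at the top of the losses covered many functions. Hebp1, a haem-binding protein, measured 0.401, 0.379, 0.377, 0.0408 and 0.0835 CPM in TAZ-S89A libraries 1 to 5, 191, 229.8 and 249 CPM in YAP-S127A and 134, 161 and 109.6 CPM in YAP-S5A, with TAZ-S89A libraries 4 and 5 lowest. Layn, a hyaluronan receptor, measured 0.0944, 0.0223, 0.029, 0 and 0.0417 CPM in TAZ-S89A libraries 1 to 5, 31.7, 36.4 and 42.9 CPM in YAP-S127A and 54.3, 88.4 and 48.3 CPM in YAP-S5A. The nearest libraries were 273-fold apart in Hebp1 and 336-fold in Layn. Scd1, the desaturase that makes oleate, measured 0.354, 0.245, 0.435, 0.571 and 0.292 CPM in TAZ-S89A libraries 1 to 5, 260.1, 266 and 249 CPM in YAP-S127A and 121, 111 and 124 CPM in YAP-S5A (log2 fold change of -8.88 ± 0.20 SE, edgeR adjusted p = 1.24e-12), although its neighbour and close copy Scd2 was higher in TAZ-S89A (log2 fold change of 0.96 ± 0.18 SE, edgeR adjusted p = 0.000478), though its separation was lost with chromosome medians taken out. Lpl, the lipase that releases fatty acids from lipoproteins, measured 0.0236, 0.0446, 0, 0.204 and 0.0835 CPM in TAZ-S89A libraries 1 to 5, 32.4, 33.7 and 39.4 CPM in YAP-S127A and 95.1, 142 and 93.5 CPM in YAP-S5A and was highest in YAP-S5A (log2 fold change of -9.95 ± 0.34 SE, edgeR adjusted p = 2.2e-11). Ctsh, a lysosomal cysteine protease, measured 0.118, 0.0669, 0.261, 0 and 0 CPM in TAZ-S89A libraries 1 to 5, 78.5, 88.4 and 105 CPM in YAP-S127A and 58.2, 96.6 and 45.96 CPM in YAP-S5A. Snhg18, a host transcript of a small nucleolar RNA, was 203-fold and Krba1 198-fold apart at the nearest libraries.

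The widest gains were genes that both YAP groups left near 0. Sult1c2, a cytosolic sulfotransferase, measured 82.2, 97.1, 104, 46.2 and 49.1 CPM in TAZ-S89A libraries 1 to 5, 0.0669, 0.131 and 0.0833 CPM in YAP-S127A and 0.0802, 0.0239 and 0 CPM in YAP-S5A. TAZ-S89A libraries 4 and 5 were lower than 1 to 3, and the lowest was 352-fold above the highest YAP library (log2 fold change of 10.34 ± 0.37 SE, edgeR adjusted p = 4.3e-11). Hgf, the ligand of the Met receptor, which in liver normally comes from stellate cells and not from epithelium, measured 53.9, 50.6, 50.9, 32.1 and 33.9 CPM in TAZ-S89A libraries 1 to 5, 0.669, 0.492 and 0.583 CPM in YAP-S127A and 0.0534, 0.0239 and 0.0968 CPM in YAP-S5A. TAZ-S89A libraries 1 to 3 were highest, and YAP-S127A kept a trace above YAP-S5A (log2 fold change of 7.86 ± 0.24 SE, edgeR adjusted p = 7.16e-12). Runx3, a runt-domain transcription factor, measured 13.9, 13.9, 14.1, 19.4 and 19.99 CPM in TAZ-S89A libraries 1 to 5, 0, 0.0328 and 0 CPM in YAP-S127A and 0.24, 0.215 and 0.0968 CPM in YAP-S5A. Cdh22, a classical cadherin, measured 11.6, 10.4, 8.47, 9.42 and 9.14 CPM in TAZ-S89A libraries 1 to 5, 0.0223, 0.0656 and 0.0278 CPM in YAP-S127A and 0, 0 and 0.0242 CPM in YAP-S5A, the nearest libraries being 129-fold apart.

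All 12 of the widest gains were under 1 CPM in every YAP library. Prl7a2, a placental member of the prolactin family, measured 27.9, 25.8, 23.7, 11.01 and 12.2 CPM in TAZ-S89A libraries 1 to 5, 0.134, 0.0984 and 0.111 CPM in YAP-S127A and 0.107, 0 and 0.0968 CPM in YAP-S5A, and its neighbours Prl7a1 and Prl7d1 were separated the same way with gaps of at least 1. Sprr1b, a cornified envelope protein of squamous epithelium, had no count in YAP-S127A and measured 13.2, 13.1, 18.4, 15.8 and 12.5 CPM in TAZ-S89A. The sodium channel Scn3a measured 8.09, 6.37, 6.15, 14.9 and 14.6 CPM, the sorting receptor Sorcs2 24.3, 23.2, 20.8, 18.1 and 17.6 CPM, the synaptic adhesion protein Clstn2 21.4, 18.8, 14.4, 19.1 and 19.95 CPM and Brinp3 32.1, 31.6, 41.9, 22.4 and 21.995 CPM in TAZ-S89A. Fam135b measured 32.98, 31.2, 24.7, 14.3 and 16.8 CPM in TAZ-S89A. S100g, a calcium-binding protein of absorptive epithelium, measured 112, 122, 86.7, 18.1 and 20.03 CPM in TAZ-S89A libraries 1 to 5, 0.0891, 0.131 and 0.0833 CPM in YAP-S127A and 0.294, 0.669 and 0.605 CPM in YAP-S5A. Its TAZ-S89A libraries 1 to 3 were far above libraries 4 and 5, and the lowest was 27.1-fold above the highest YAP library.

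**Figure D2:**
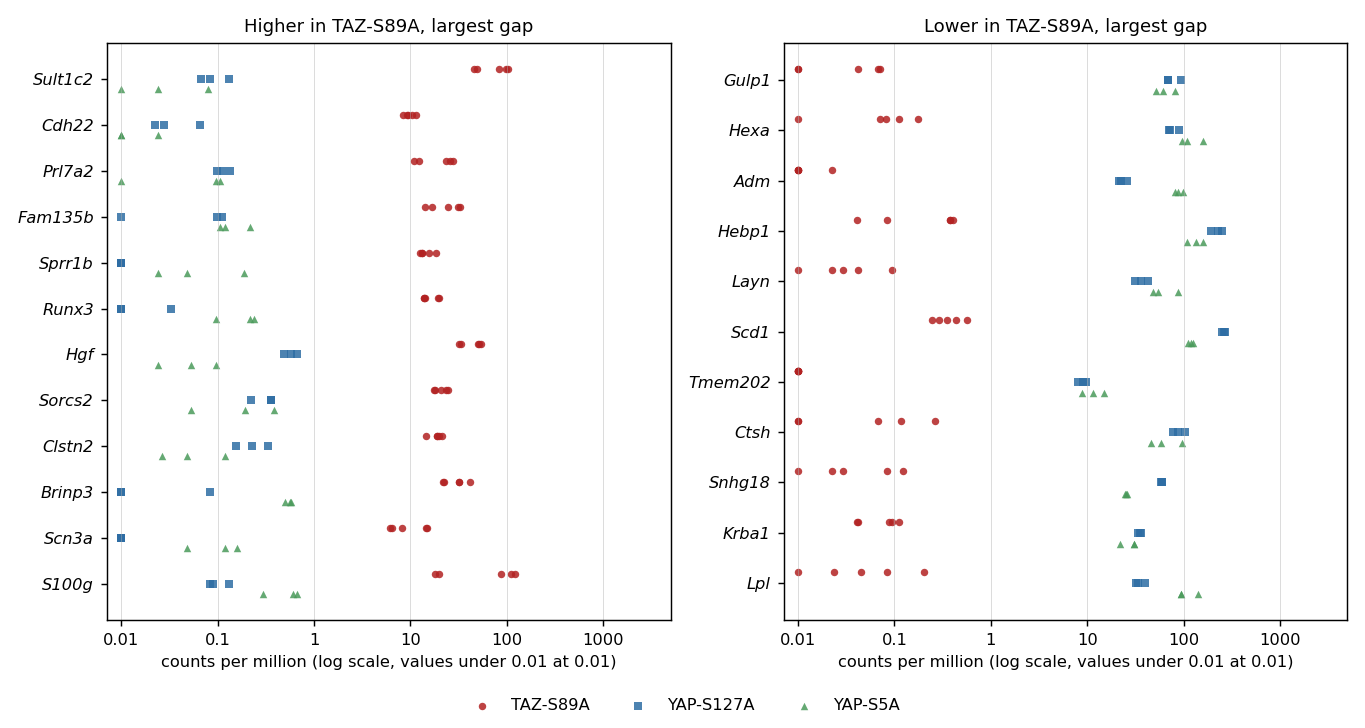
Level of each library in CPM on a log axis for the 12 genes higher (left) and 11 of the 12 genes lower (right) in TAZ-S89A with the widest gap between the nearest TAZ-S89A and YAP libraries, among genes with an average log2 CPM of at least 2. TAZ-S89A libraries (circles) and YAP libraries (squares, YAP-S127A; triangles, YAP-S5A) lie on opposite sides with no overlap, 7.96 log2 apart for Sult1c2 and 8.70 for Gulp1.

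A second set was picked for YAP groups that were alike, within 0.5 log2, so that a single YAP level could be read. Gdnf, a neurotrophic ligand that signals through GFR alpha coreceptors and Ret, measured 70.9, 65.7, 55.3, 57.3 and 57.5 CPM in TAZ-S89A libraries 1 to 5, 2.05, 2.0 and 2.11 CPM in YAP-S127A and 2.67, 2.51 and 2.66 CPM in YAP-S5A. The spread within each group was small, and the nearest libraries were 20.7-fold apart (log2 fold change of 4.72 ± 0.11 SE, edgeR adjusted p = 1.24e-12). Tfcp2l1, a grainyhead-like factor of renal collecting duct and of pluripotent cells, measured 50.7, 48.3, 33.4, 44.4 and 44.5 CPM in TAZ-S89A libraries 1 to 5, 3.14, 3.18 and 3.42 CPM in YAP-S127A and 2.62, 2.22 and 2.66 CPM in YAP-S5A. For Tfcp2l1 the test gave a log2 fold change of 3.96 ± 0.13 SE, edgeR adjusted p = 1.44e-11. Il17rd, which restrains FGF signalling, measured 29.7, 28.1, 19.9, 51.3 and 53.01 CPM in TAZ-S89A libraries 1 to 5, 1.18, 1.57 and 2.28 CPM in YAP-S127A and 1.18, 1.08 and 2.18 CPM in YAP-S5A and was highest in TAZ-S89A libraries 4 and 5. Cxcl3 (12.6-fold at the nearest libraries), Igsf11 (9.48-fold), the calcium channel Cacna1b (9.16-fold), the procollagen enhancer Pcolce2 (8.33-fold) and Rassf2 (7.72-fold), a relative of Hippo scaffolds, completed the set.

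Among the losses with YAP groups that lay close, Arhgap29, a GTPase-activating protein, measured 1.2, 1.18, 1.1, 1.26 and 0.918 CPM in TAZ-S89A libraries 1 to 5, 162, 163 and 171 CPM in YAP-S127A and 208, 251 and 221 CPM in YAP-S5A. The 5 TAZ-S89A libraries differed by little, and the nearest YAP library was 128-fold above them (log2 fold change of -7.41 ± 0.15 SE, edgeR adjusted p = 1.24e-12). Nid1, the basement membrane linker nidogen, measured 2.69, 2.72, 2.64, 4.36 and 4.76 CPM in TAZ-S89A libraries 1 to 5, 655, 669 and 612 CPM in YAP-S127A and 688, 577 and 736 CPM in YAP-S5A. The difference of Nid1 was a log2 fold change of -7.59 ± 0.26 SE, edgeR adjusted p = 2.29e-11. Phyh, a peroxisomal hydroxylase that degrades branched fatty acids, was 224-fold and Gpx7, a glutathione peroxidase of the endoplasmic reticulum, 243-fold apart. Gulp1, Tmem202, Ctsh and Krba1 also met this rule. Beyond the rule, Loxl2, an enzyme that crosslinks collagen, Igf2r, Osr1, Il15 and Fstl3 had YAP groups within 0.5 log2 as well, and their values are given with their families.

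**Figure D3:**
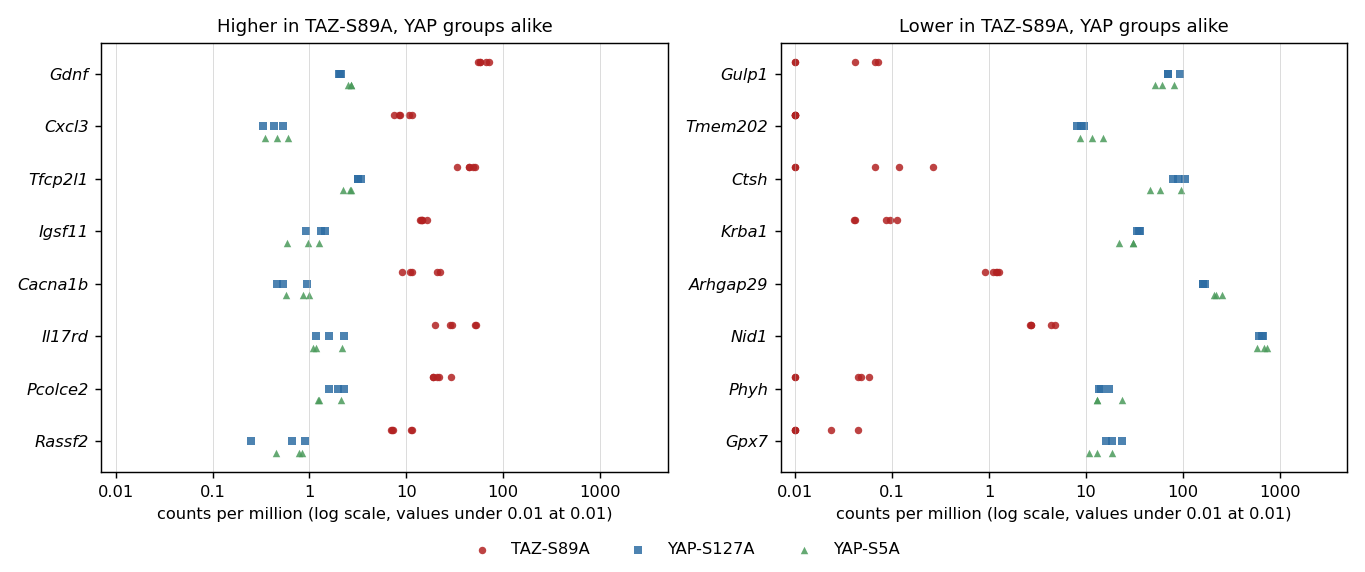
Level of each library in CPM on a log axis for genes separated in TAZ-S89A whose YAP groups lay within 0.5 log2 of each other, 8 higher (left) and 8 lower (right), chosen for the widest gap. YAP-S127A (squares) and YAP-S5A (triangles) overlap or nearly touch, and TAZ-S89A (circles) stands apart, from 7.72-fold for Rassf2 to 20.7-fold for Gdnf among the gains.

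The promoters of 4 genes from these sets are shown because the CpG content of start regions differed between widely separated genes and the rest. Each is the 250 bases before a RefSeq transcription start (build GRCm38.p6), 5′ to 3′ on the gene's strand, with CpG dinucleotides in capitals. Gulp1 (chr1:44551421-44551670, plus strand, 12 CpG) and Nid1 (chr13:13437352-13437601, plus strand, 16 CpG) were lost in TAZ-S89A. Sult1c2 (chr17:53845959-53846208, minus strand, 4 CpG) and Tfcp2l1 (chr1:118627695-118627944, plus strand, 16 CpG) were gained. The bases after the start were looked for near the start of the gene's GENCODE transcripts. They were found for Gulp1, Nid1 and Tfcp2l1 but not for Sult1c2, whose start is thus less certain.
Gulp1: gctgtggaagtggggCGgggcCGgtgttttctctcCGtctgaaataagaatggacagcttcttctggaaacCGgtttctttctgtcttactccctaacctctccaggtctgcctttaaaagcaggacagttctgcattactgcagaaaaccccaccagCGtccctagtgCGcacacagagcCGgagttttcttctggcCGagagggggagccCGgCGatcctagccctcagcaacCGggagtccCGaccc
Nid1: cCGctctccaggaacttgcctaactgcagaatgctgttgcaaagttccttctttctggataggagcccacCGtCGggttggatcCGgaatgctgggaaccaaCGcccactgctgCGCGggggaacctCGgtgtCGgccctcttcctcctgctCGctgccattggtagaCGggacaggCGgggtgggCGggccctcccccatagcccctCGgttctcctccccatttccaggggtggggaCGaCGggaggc
Sult1c2: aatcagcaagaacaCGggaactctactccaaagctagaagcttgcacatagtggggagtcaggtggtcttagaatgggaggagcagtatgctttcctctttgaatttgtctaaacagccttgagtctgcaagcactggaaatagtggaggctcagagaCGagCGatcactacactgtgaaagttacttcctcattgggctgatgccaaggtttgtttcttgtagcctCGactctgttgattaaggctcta
Tfcp2l1: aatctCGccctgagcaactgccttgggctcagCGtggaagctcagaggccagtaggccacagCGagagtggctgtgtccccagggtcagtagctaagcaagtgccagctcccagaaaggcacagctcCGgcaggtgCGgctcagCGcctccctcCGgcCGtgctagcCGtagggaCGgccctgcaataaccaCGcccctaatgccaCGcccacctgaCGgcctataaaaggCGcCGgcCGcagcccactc

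RefSeq windows of 300 bases, reaching 50 past the start, were at hand for 12709 of the 18224 genes. The CpG ratio (observed over expected from base composition, averaged over a gene's windows) had a median of 0.71 over all of these, and 63.1% were at or above 0.6. Among 305 genes higher with a gap of at least 1 the median was 0.46 (41.0% at or above 0.6), and among 748 genes lower with such a gap it was 0.53 (42.0%). The TEAD hexamer GGAATG, read on both strands, was in a window of 15.2% of all genes, 14.3% of the separated and called genes higher and 17.9% of those lower. It occurs in the Nid1 promoter and in none of the other 3 shown. A match describes letters only and shows no binding.

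Most of the feedback inhibitors that ERK signalling induces and that then dampen it were lower. Of 10 inhibitors on the list 8 were lower and separated (80%, beside 15.9% of all genes tested) and none higher. Their median log2 fold change was -1.45. Il17rd, which also restrains FGF signalling, is not on this list and was higher and separated, with its values given above. Dusp6, a phosphatase that acts on ERK, measured 21.04, 21.9, 30.1, 31.7 and 33.8 CPM in TAZ-S89A libraries 1 to 5, 143, 137 and 151 CPM in YAP-S127A and 327, 374 and 328 CPM in YAP-S5A. TAZ-S89A was lowest throughout and YAP-S5A highest (log2 fold change of -3.003 ± 0.16 SE, edgeR adjusted p = 1.7e-09). Spry4, an adaptor that blocks receptor tyrosine kinase signalling, measured 0.212, 0.0223, 0.087, 0.489 and 0.459 CPM in TAZ-S89A libraries 1 to 5, 30.7, 29.5 and 24.8 CPM in YAP-S127A and 7.24, 8.1 and 7.6 CPM in YAP-S5A. Spry4 thus differed by a log2 fold change of -6.05 ± 0.36 SE, edgeR adjusted p = 5.08e-09. Spry2 measured 12.1, 13.2, 13.4, 18.6 and 18.8 CPM in TAZ-S89A libraries 1 to 5, 54.2, 54.5 and 53.7 CPM in YAP-S127A and 67.7, 62.6 and 67.8 CPM in YAP-S5A, with the YAP groups close (log2 fold change of -1.98 ± 0.13 SE, edgeR adjusted p = 1.86e-08). Spry1 (-1.56 ± 0.12, log2 ± SE), Dusp4 (-2.29 ± 0.18), Dusp5, Dusp7 and Spred3 (-1.33 ± 0.14) completed the 8. Of 7 other genes that ERK induces, most of them transcription factors, 2 were lower and separated (28.6%), the ETS factors Etv5 and Etv4. Etv5 measured 0.944, 0.825, 0.754, 2.45 and 2.21 CPM in TAZ-S89A libraries 1 to 5, 20.1, 19.5 and 19.8 CPM in YAP-S127A and 7.83, 5.9 and 8.64 CPM in YAP-S5A. For Etv5 the test gave a log2 fold change of -3.15 ± 0.29 SE, edgeR adjusted p = 5.3e-07. Egr1 was called higher (log2 fold change 1.84) but overlapped. All 8 inhibitors kept their separation and call under each scaling tried and with chromosome medians taken out.

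Among growth factors and their receptors, some genes were higher and others lower. Of 23 ligands of the FGF, HGF, IGF and PDGF families 7 were higher (30.4%) and 5 lower (21.7%) and separated, and of 22 receptors 4 (18.2%) and 7 (31.8%), beside 12% and 15.9% of all genes tested. Beside Hgf and Gdnf, their receptors were higher to a lesser extent. Met measured 189, 171, 196, 281 and 271 CPM in TAZ-S89A libraries 1 to 5, 82.7, 80.4 and 79.6 CPM in YAP-S127A and 132, 141 and 143 CPM in YAP-S5A (log2 fold change of 1.07 ± 0.15 SE, edgeR adjusted p = 3.06e-05), while Ret stayed under 1 CPM in every library, and the GDNF coreceptor Gfra1 was near 0 with overlapping groups. Pdgfc and Pdgfb were higher with gaps under 1. Fgf2 fell to 0.0708, 0, 0.087, 0.122 and 0.0417 CPM in TAZ-S89A from 2.65, 2.69 and 2.33 CPM in YAP-S127A and 2.59, 2.44 and 3.61 CPM in YAP-S5A, but it overlaps antisense Fgf2os and Nudt6. Pdgfd measured 0.0944, 0.178, 0.464, 0.163 and 0 CPM in TAZ-S89A libraries 1 to 5, 17.1, 18.99 and 22.1 CPM in YAP-S127A and 9.01, 14.1 and 7.38 CPM in YAP-S5A. The difference of Pdgfd was a log2 fold change of -6.20 ± 0.38 SE, edgeR adjusted p = 6.85e-09. Gas6, the ligand of the TAM receptors, and the TAM receptors Mertk and Axl were all lower (Axl not with chromosome medians taken out), Mertk with 0.0236, 0.0223, 0.087, 0.0408 and 0.0417 CPM in TAZ-S89A libraries 1 to 5, 32.1, 31.3 and 29.8 CPM in YAP-S127A and 2.3, 2.58 and 2.73 CPM in YAP-S5A. The insulin-like growth factor binding proteins split: Igfbp4 measured 2.69, 2.83, 4.73, 5.06 and 4.84 CPM in TAZ-S89A libraries 1 to 5, 82.1, 77.3 and 79.8 CPM in YAP-S127A and 703, 703 and 691 CPM in YAP-S5A, whereas Igfbp5 measured 2.95, 3.43, 1.97, 3.34 and 2.75 CPM in TAZ-S89A libraries 1 to 5, 0.111, 0.0656 and 0.0555 CPM in YAP-S127A and 0.0267, 0.119 and 0.0726 CPM in YAP-S5A. In the EGF receptor family 6 of 17 genes were lower (35.3%) and 2 higher (11.8%) and separated. Areg, an EGF receptor ligand, measured 0.519, 0.468, 0.899, 0.897 and 1.42 CPM in TAZ-S89A libraries 1 to 5, 9.29, 8.63 and 9.47 CPM in YAP-S127A and 62.5, 80.1 and 57.5 CPM in YAP-S5A (log2 fold change of -4.95 ± 0.24 SE, edgeR adjusted p = 5.76e-10), and Egfr itself 39.8, 33.6, 30.4, 40.7 and 41.4 CPM in TAZ-S89A libraries 1 to 5, 85.3, 87.9 and 83.1 CPM in YAP-S127A and 269.98, 239 and 289.9 CPM in YAP-S5A. Egfr thus differed by a log2 fold change of -2.02 ± 0.12 SE, edgeR adjusted p = 6.82e-09.

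In the TGF-beta and BMP families, 16 of 43 genes were lower (37.2%) and 5 higher (11.6%) and separated, beside 15.9% and 12% of all genes tested. Bmp4, a ligand, measured 4.95, 5.46, 5.1, 6.77 and 6.26 CPM in TAZ-S89A libraries 1 to 5, 82.5, 82.3 and 84.1 CPM in YAP-S127A and 92.9, 96.7 and 98.6 CPM in YAP-S5A, and the YAP groups hardly differed (log2 fold change of -3.97 ± 0.12 SE, edgeR adjusted p = 5.8e-12). Acvrl1, a receptor for BMP9, measured 0.0236, 0.134, 0.203, 0.163 and 0.0835 CPM in TAZ-S89A against 5.71 CPM or more in each YAP library. Fstl3, which binds and blocks activins, measured 0.519, 0.423, 0.261, 0.367 and 0.459 CPM in TAZ-S89A libraries 1 to 5, 37.97, 41.8 and 37.6 CPM in YAP-S127A and 34.2, 32.1 and 33.5 CPM in YAP-S5A. For Fstl3 the test gave a log2 fold change of -6.45 ± 0.16 SE, edgeR adjusted p = 1.86e-12. Inhbb, the activin B subunit, was higher, with 6.63, 5.68, 6.76, 6.52 and 7.26 CPM in TAZ-S89A libraries 1 to 5, 0.245, 0.262 and 0.278 CPM in YAP-S127A and 0.0534, 0.0478 and 0.145 CPM in YAP-S5A. The difference of Inhbb was a log2 fold change of 5.44 ± 0.20 SE, edgeR adjusted p = 4.82e-11. Id3, a direct BMP target, measured 18.6, 17.9, 29.1, 17.2 and 15.8 CPM in TAZ-S89A libraries 1 to 5, 223, 244 and 303 CPM in YAP-S127A and 263, 321 and 229 CPM in YAP-S5A. Id3 thus differed by a log2 fold change of -3.74 ± 0.20 SE, edgeR adjusted p = 1.54e-09. Its relative Id2 was higher and separated, as was the ligand Bmp7, and Id1 was not separated. Of 7 target genes on the list 1 was higher and 3 lower, and of 13 ligands 2 and 4. The WNT list had 3 of 41 higher (7.32%) and 8 lower (19.5%) and separated, beside 12% and 15.9% of all genes tested. Lgr5, the R-spondin receptor of stem cells, was higher, with 22.2, 19.7, 12.6, 12.7 and 10.9 CPM in TAZ-S89A libraries 1 to 5, 0.0669, 0.0328 and 0.0278 CPM in YAP-S127A and 2.16, 1.24 and 1.96 CPM in YAP-S5A. For Lgr5 the test gave a log2 fold change of 5.74 ± 0.29 SE, edgeR adjusted p = 8.98e-10. Axin2, a feedback target of the canonical pathway, was lower, with 2.03, 1.2, 1.77, 2.28 and 1.63 CPM in TAZ-S89A libraries 1 to 5, 9.85, 8.63 and 7.36 CPM in YAP-S127A and 12.1, 9.39 and 11.5 CPM in YAP-S5A (log2 fold change of -2.46 ± 0.17 SE, edgeR adjusted p = 2.94e-08), so Lgr5 and Axin2 differed in direction. Lef1, a DNA-binding partner of beta-catenin, had no count in YAP-S5A, 0.134, 0.164 and 0.111 CPM in YAP-S127A and 1.67, 1.98, 1.42, 6.2 and 5.97 CPM in TAZ-S89A. With chromosome medians taken out the WNT list had 7 higher and 5 lower, so its lean is not stable.

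Hox genes, which keep positional identity, formed the most uniform loss. Of 29 Hox genes tested 26 were lower and separated (89.7%) and none higher, beside 15.9% and 12% of all genes tested. The 26 were 9 of 9 Hoxb, 9 of 9 Hoxc, 3 of 3 Hoxd and 5 of 8 Hoxa. Hoxc6 measured 0.0708, 0, 0.029, 0.122 and 0.0417 CPM in TAZ-S89A libraries 1 to 5, 31.04, 26.4 and 21.9 CPM in YAP-S127A and 167, 130.4 and 189 CPM in YAP-S5A. YAP-S5A was highest, YAP-S127A lower, and TAZ-S89A near 0 (log2 fold change of -10.34 ± 0.31 SE, edgeR adjusted p = 7.16e-12). Hoxb6 measured 0, 0.0446, 0.145, 0.0408 and 0.0417 CPM in TAZ-S89A libraries 1 to 5, 10.1, 9.74 and 10.03 CPM in YAP-S127A and 81.2, 59.3 and 85.8 CPM in YAP-S5A, with the same order (log2 fold change of -8.92 ± 0.30 SE, edgeR adjusted p = 2.03e-11). Hoxa7, which was low in all lines, measured 0.0236, 0.0446, 0, 0 and 0.0417 CPM in TAZ-S89A libraries 1 to 5, 1.09, 0.754 and 0.778 CPM in YAP-S127A and 2.08, 2.2 and 2.9 CPM in YAP-S5A. Along chromosome 11, 15 neighbouring tested genes from Hoxb13 to Hoxb2 were all lower with gaps of at least 1, antisense transcripts and the microRNA gene Mir196a-1 included. Along chromosome 15 the run was 8 genes from Hoxc13 to Hoxc8 followed by 4 more from Hoxc6 on, and Hotair, the long noncoding RNA between Hoxc11 and Hoxc12, had no count in TAZ-S89A. Hoxa3 and Hoxa4 were not called. Reads within a cluster may be shared between overlapping and similar genes, so single members are less certain than the cluster. All 26 were also lower with chromosome medians taken out.

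Other transcription factors of development changed in smaller groups. Of 9 T-box and RUNX genes 4 were higher and separated (44.4%), namely Runx1, Runx2, Runx3 and their common partner Cbfb. None was lower and separated. By the test alone 5 of the 9 were called higher and 4 lower. The T-box genes tested, Tbx1, Tbx2, Tbx3, Tbx15 and Tbx18, were not separated. Cbfb measured 86.2, 83.6, 118, 142 and 142 CPM in TAZ-S89A libraries 1 to 5, 46.9, 46.8 and 52.3 CPM in YAP-S127A and 45.2, 52.4 and 48.7 CPM in YAP-S5A, with YAP groups alike (log2 fold change of 1.23 ± 0.15 SE, edgeR adjusted p = 9.83e-06). Runx2 measured 59.7, 58.4, 45.8, 70.2 and 65.6 CPM in TAZ-S89A libraries 1 to 5, 35.6, 37.8 and 33.1 CPM in YAP-S127A and 26.6, 21.5 and 29.4 CPM in YAP-S5A (log2 fold change of 0.99 ± 0.12 SE, edgeR adjusted p = 1.03e-05), and Runx1 was separated by 1.09-fold only. Runx1, on chromosome 16, and Runx2, on chromosome 17, lost their separation or call with chromosome medians taken out, and Runx3 and Cbfb kept theirs. Sox11, a factor of embryonic neural and mesenchymal progenitors, measured 86.1, 90.4, 65.9, 96.8 and 98.8 CPM in TAZ-S89A libraries 1 to 5, 4.9, 4.13 and 3.89 CPM in YAP-S127A and 0.989, 0.86 and 1.14 CPM in YAP-S5A. The difference of Sox11 was a log2 fold change of 5.40 ± 0.14 SE, edgeR adjusted p = 3.11e-12. Osr1, a zinc finger factor of early mesoderm, measured 0.401, 0.312, 0.551, 0.489 and 0.334 CPM in TAZ-S89A libraries 1 to 5, 34.99, 36.5 and 33.1 CPM in YAP-S127A and 31.7, 27.1 and 29.7 CPM in YAP-S5A (log2 fold change of -6.27 ± 0.16 SE, edgeR adjusted p = 2.24e-12), and Lhx9, a LIM homeobox factor known from stellate cells and gonad, measured 0.448, 0.49, 0.58, 0.408 and 0.209 CPM in TAZ-S89A libraries 1 to 5, 21.5, 19.6 and 21.2 CPM in YAP-S127A and 20.01, 19.6 and 22.4 CPM in YAP-S5A. Lhx9 thus differed by a log2 fold change of -5.54 ± 0.18 SE, edgeR adjusted p = 1.3e-11. The LIM homeobox genes Lhx2 and Lhx6 went the other way, higher and separated. Of 36 homeobox genes outside the Hox clusters 5 were higher (13.9%) and 10 lower (27.8%) and separated. Of 17 liver transcription factors 6 were lower (35.3%) and 1 higher (5.88%) and separated, beside 15.9% and 12% of all genes tested. Hnf4a, the main regulator of hepatocyte genes, measured 0.802, 0.691, 0.696, 0.612 and 0.584 CPM in TAZ-S89A libraries 1 to 5, 7.62, 9.25 and 7.89 CPM in YAP-S127A and 7.67, 6.72 and 7.09 CPM in YAP-S5A (log2 fold change of -3.48 ± 0.15 SE, edgeR adjusted p = 1.39e-10), and Foxa2 measured 0.118, 0.134, 0.406, 0.612 and 0.543 CPM in TAZ-S89A libraries 1 to 5, 8.62, 7.64 and 8.14 CPM in YAP-S127A and 24.96, 21.9 and 25.4 CPM in YAP-S5A. For Foxa2 the test gave a log2 fold change of -5.41 ± 0.30 SE, edgeR adjusted p = 2.42e-09.

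Targets of p53, the stress-activated tumour suppressor, were mostly lower, with a median log2 fold change of -1.53. Of 28 genes tested on this list, which also holds Trp53, the gene of p53, 17 were lower (60.7%) and separated. Only 1 was higher (3.57%) and separated, beside 15.9% lower and 12% higher of all genes tested. Cdkn1a, which encodes the cell cycle inhibitor p21, measured 3.75, 3.81, 4.15, 7.79 and 6.59 CPM in TAZ-S89A libraries 1 to 5, 84.9, 89.3 and 83.04 CPM in YAP-S127A and 272, 261 and 284 CPM in YAP-S5A. TAZ-S89A was lowest, YAP-S127A intermediate and YAP-S5A highest (log2 fold change of -4.89 ± 0.22 SE, edgeR adjusted p = 2.96e-10). Eda2r, a death receptor, measured 3.26, 3.43, 4.78, 2.57 and 2.17 CPM in TAZ-S89A libraries 1 to 5, 63.8, 69.2 and 84.7 CPM in YAP-S127A and 263, 406 and 241 CPM in YAP-S5A in the same order (log2 fold change of -5.50 ± 0.24 SE, edgeR adjusted p = 2.42e-10). Mdm2, which degrades p53, measured 84.5, 82.9, 113, 77.2 and 75.1 CPM in TAZ-S89A libraries 1 to 5, 163, 157 and 178 CPM in YAP-S127A and 1045, 1573 and 1031 CPM in YAP-S5A. Its difference was -0.94 against YAP-S127A and -3.81 against YAP-S5A on the log2 scale, and YAP-S5A was the group that stood apart. Ccng1, Zmat3, Bax and Bbc3 were also lower and separated, and Ddb2 was separated upward by 1.08-fold. Trp53 itself was called higher (log2 fold change of 0.41 ± 0.13 SE, edgeR adjusted p = 0.0171) but overlapped. With chromosome medians taken out, 12 of the 17 kept their separation and call, and Bax and Bbc3, both on chromosome 7, were among those that did not. Replication and mitosis genes leaned upward, with 8 of 40 higher and separated (20%, beside 12% of all genes tested), none lower, and a median of 0.49. All 8 kept their call and separation with chromosome medians taken out. The replication licensing factor Cdt1 measured 72.3, 67.3, 77.04, 103 and 106 CPM in TAZ-S89A libraries 1 to 5, 42.6, 42.8 and 40.02 CPM in YAP-S127A and 42.8, 38.9 and 46.6 CPM in YAP-S5A (log2 fold change of 1.01 ± 0.13 SE, edgeR adjusted p = 1.77e-05), while Mki67, the proliferation antigen, was not called. Of the D-type cyclins, which drive entry into the cycle, Ccnd1 and Ccnd2 were lower and separated and Ccnd3 was not. Ccnd2 measured 85.6, 86.7, 87.8, 105 and 104 CPM in TAZ-S89A libraries 1 to 5, 984, 1012 and 894 CPM in YAP-S127A and 785, 737 and 826 CPM in YAP-S5A. Ccnd2 thus differed by a log2 fold change of -3.21 ± 0.16 SE, edgeR adjusted p = 7.86e-10.

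Imprinted genes are read from 1 parental copy, and many of them act on fetal growth. Of 22 tested, 11 were lower and separated (50%, beside 15.9% of all genes tested) and none higher. Igf2r, which clears IGF2, measured 2.19, 2.41, 1.62, 2.98 and 2.25 CPM in TAZ-S89A libraries 1 to 5, 68.4, 64.9 and 58.2 CPM in YAP-S127A and 64.5, 53.6 and 68.03 CPM in YAP-S5A. For Igf2r the test gave a log2 fold change of -4.79 ± 0.16 SE, edgeR adjusted p = 1.65e-11. Peg3, a zinc finger factor, measured 1.72, 1.54, 1.59, 2.49 and 1.59 CPM in TAZ-S89A libraries 1 to 5, 465, 446 and 410.4 CPM in YAP-S127A and 49.5, 38.6 and 54.7 CPM in YAP-S5A, highest in YAP-S127A (log2 fold change of -6.35 ± 0.19 SE, edgeR adjusted p = 7.16e-12). Ndn, the growth suppressor necdin, measured 0, 0.0891, 0.174, 0.0408 and 0 CPM in TAZ-S89A libraries 1 to 5, 28.3, 32.5 and 39.02 CPM in YAP-S127A and 10.02, 15.5 and 9.46 CPM in YAP-S5A (log2 fold change of -8.18 ± 0.38 SE, edgeR adjusted p = 3.84e-10), and Snrpn measured 0.495, 0.334, 0.986, 0.285 and 0.543 CPM in TAZ-S89A against 11.7, 13.9 and 14.4 CPM in YAP-S127A and 16.8, 20.2 and 15.3 CPM in YAP-S5A. Peg3, Ndn and Snrpn lie on chromosome 7 and Igf2r on chromosome 17, and all 11 kept their call and separation with chromosome medians taken out. H19 had no count in TAZ-S89A and at most 3.74 CPM in any library, and Igf2 was under 2 CPM in all 11 libraries. Of the oncofetal RNA-binding genes all 4 were lower. Igf2bp1, which stabilises growth-related messages, measured 37.4, 36.9, 32.997, 42.6 and 46.4 CPM in TAZ-S89A libraries 1 to 5, 145, 141 and 126 CPM in YAP-S127A and 222, 175 and 237 CPM in YAP-S5A (log2 fold change of -2.12 ± 0.13 SE, edgeR adjusted p = 9.56e-09), Lin28b, which blocks let-7 maturation, 0.0236, 0.111, 0, 0 and 0 CPM in TAZ-S89A libraries 1 to 5, 0.847, 0.853 and 1.17 CPM in YAP-S127A and 7.24, 5.26 and 6.75 CPM in YAP-S5A, and Igf2bp2 was separated by 1.03-fold only. Hmga2, a let-7 target and chromatin protein, measured 52.9, 54.8, 52.3, 58.1 and 58.4 CPM in TAZ-S89A libraries 1 to 5, 219.99, 199.98 and 202 CPM in YAP-S127A and 176, 188 and 191 CPM in YAP-S5A. The difference of Hmga2 was a log2 fold change of -1.82 ± 0.11 SE, edgeR adjusted p = 4.2e-09.

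Many enzymes of cholesterol synthesis were higher in TAZ-S89A, by modest folds. Of 20 enzymes 10 were higher and separated (50%, beside 12% of all genes tested) and none lower. By the test alone 14 were called higher, and the median log2 fold change was 0.77. The 11 control genes of the list split, 3 higher and 3 lower. Cyp51, the lanosterol demethylase, measured 178, 174, 316, 173 and 174 CPM in TAZ-S89A libraries 1 to 5, 64.1, 68.9 and 83.4 CPM in YAP-S127A and 45.1, 83.1 and 41.000 CPM in YAP-S5A, with TAZ-S89A library 3 highest (log2 fold change of 1.67 ± 0.22 SE, edgeR adjusted p = 1.6e-05). Sqle, which makes squalene epoxide, measured 114, 116, 145, 163 and 164 CPM in TAZ-S89A libraries 1 to 5, 36.9, 37.4 and 40.97 CPM in YAP-S127A and 69.6, 80.6 and 74.4 CPM in YAP-S5A (log2 fold change of 1.39 ± 0.13 SE, edgeR adjusted p = 4.52e-07), and Mvd measured 26.4, 26.99, 43.99, 27.3 and 25.5 CPM in TAZ-S89A libraries 1 to 5, 12.7, 14.1 and 13.6 CPM in YAP-S127A and 13.8, 14.96 and 12.5 CPM in YAP-S5A. Mvd thus differed by a log2 fold change of 1.14 ± 0.14 SE, edgeR adjusted p = 1.14e-05. The regulator Srebf2 was higher (log2 fold change of 0.70 ± 0.13 SE, edgeR adjusted p = 0.000277), as was the sterol carrier Stard4. The efflux transporters were lower. Abca1 measured 1.27, 1.03, 0.87, 1.35 and 1.04 CPM in TAZ-S89A libraries 1 to 5, 63.1, 66.2 and 62.02 CPM in YAP-S127A and 52.8, 39.6 and 58.2 CPM in YAP-S5A (log2 fold change of -5.67 ± 0.16 SE, edgeR adjusted p = 4.14e-12) and Abcg1 0.0944, 0.0446, 0.058, 0.163 and 0.209 CPM in TAZ-S89A libraries 1 to 5, 2.03, 1.87 and 1.81 CPM in YAP-S127A and 2.81, 3.15 and 3.05 CPM in YAP-S5A. For Abcg1 the test gave a log2 fold change of -4.51 ± 0.28 SE, edgeR adjusted p = 8.38e-09. With chromosome medians taken out 11 enzymes were higher, 9 of the 10 among them. In fatty acid and lipid handling 8 of 43 were higher and 8 lower (18.6% each), beside 12% and 15.9% of all genes tested, and 5 were higher with chromosome medians taken out. Plin4, a lipid droplet coat protein, was higher, with 70.5, 62.4, 39.98, 30.6 and 30.3 CPM in TAZ-S89A libraries 1 to 5, 3.34, 2.56 and 1.94 CPM in YAP-S127A and 12.6, 8.1 and 12.97 CPM in YAP-S5A, and Cpt1c, a brain-type carnitine palmitoyltransferase, was lower, with 0.189, 0.357, 0.29, 0.285 and 0.501 CPM in TAZ-S89A libraries 1 to 5, 52.2, 51.1 and 45.99 CPM in YAP-S127A and 94.5, 64.1 and 102 CPM in YAP-S5A.

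Genes of detoxification were lower in 16 of 50 cases (32%) and higher in 4 (8%), beside 15.9% and 12% of all genes tested. These became 14 lower and 1 higher with chromosome medians taken out. Aldh1a1, which makes retinoic acid, measured 0.259, 0.49, 1.04, 0.571 and 0.417 CPM in TAZ-S89A libraries 1 to 5, 51.4, 53.8 and 69.9 CPM in YAP-S127A and 329, 590.001 and 292 CPM in YAP-S5A. The difference of Aldh1a1 was a log2 fold change of -8.11 ± 0.35 SE, edgeR adjusted p = 2.22e-10. Cyp27a1, the sterol hydroxylase of bile acid synthesis, measured 0.0472, 0.0669, 0.029, 0.0408 and 0 CPM in TAZ-S89A libraries 1 to 5, 4.19, 3.61 and 4.17 CPM in YAP-S127A and 6.68, 5.57 and 7.38 CPM in YAP-S5A. Cyp27a1 thus differed by a log2 fold change of -6.85 ± 0.28 SE, edgeR adjusted p = 1.01e-10. In the glutathione and NRF2 group 10 of 26 were lower and none higher, Gpx3 with 0.566, 0.267, 0.203, 0.612 and 0.584 CPM in TAZ-S89A libraries 1 to 5, 21.8, 23.9 and 23.996 CPM in YAP-S127A and 7.03, 9.68 and 7.41 CPM in YAP-S5A and Gsta4 with 5.17, 6.64, 7.74, 9.79 and 10.7 CPM in TAZ-S89A libraries 1 to 5, 70.5, 81.97 and 91.1 CPM in YAP-S127A and 509, 651 and 458 CPM in YAP-S5A. Among 12 hypoxia genes 5 were lower (41.7%) and 2 higher (16.7%) and separated. Car12, a membrane carbonic anhydrase, had 1 count in TAZ-S89A, a pooled ratio of 2046-fold (95% counting interval 367 to 80823), and Ndrg1 was higher, with 175, 166, 192, 175 and 166 CPM in TAZ-S89A libraries 1 to 5, 8.16, 8.13 and 9.36 CPM in YAP-S127A and 60.9, 62.97 and 64.6 CPM in YAP-S5A. For Ndrg1 the test gave a log2 fold change of 2.91 ± 0.10 SE, edgeR adjusted p = 2.86e-11.

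Matrix genes differed in kind. Of 35 collagens and crosslinking enzymes 13 were lower (37.1%) and 7 higher (20%) and separated, beside 15.9% and 12% of all genes tested. Col1a1, the main fibrillar collagen, measured 32.3, 36.5, 27.5, 28.7 and 29.8 CPM in TAZ-S89A libraries 1 to 5, 3054, 3038 and 2755 CPM in YAP-S127A and 359, 256 and 351 CPM in YAP-S5A. YAP-S127A was far above YAP-S5A, and the highest TAZ-S89A library was 7.02-fold below the lowest of YAP-S5A (log2 fold change of -4.98 ± 0.21 SE, edgeR adjusted p = 1.21e-10). Col1a2, the partner chain of the same collagen, was called higher in the averaged contrast (log2 fold change of 3.53 ± 0.25 SE, edgeR adjusted p = 3.24e-08), with 2997, 3056, 2021, 1500.4 and 1518 CPM in TAZ-S89A libraries 1 to 5, 2354, 2325 and 2139 CPM in YAP-S127A and 14.7, 17.8 and 16.1 CPM in YAP-S5A. TAZ-S89A overlapped YAP-S127A in Col1a2 and lay far above YAP-S5A. Col6a1 and Col6a2, neighbours on chromosome 10 that encode collagen VI chains, were higher, Col6a1 with 603, 567, 411, 263 and 258 CPM in TAZ-S89A libraries 1 to 5, 117, 109 and 100.1 CPM in YAP-S127A and 3.82, 4.45 and 4.43 CPM in YAP-S5A. The difference of Col6a1 was a log2 fold change of 4.29 ± 0.25 SE, edgeR adjusted p = 3.81e-09. Loxl2 measured 2.45, 1.92, 2.67, 2.12 and 1.88 CPM in TAZ-S89A libraries 1 to 5, 129, 126 and 121 CPM in YAP-S127A and 115, 117 and 124 CPM in YAP-S5A (log2 fold change of -5.78 ± 0.14 SE, edgeR adjusted p = 1.47e-12), and Lox was lower too. Of 10 laminins 4 were lower and none higher, 2 of the 4 with chromosome medians taken out, and Lamb1 was lower with 23.5, 23.7, 17.6, 36.4 and 36.3 CPM in TAZ-S89A libraries 1 to 5, 352, 344 and 319.5 CPM in YAP-S127A and 149, 125 and 163 CPM in YAP-S5A. Lamb1 thus differed by a log2 fold change of -3.02 ± 0.20 SE, edgeR adjusted p = 1.89e-08. Spp1, the secreted phosphoprotein osteopontin, rose, with 3315, 3307, 3586, 1669 and 1804 CPM in TAZ-S89A libraries 1 to 5, 285, 320.4 and 372 CPM in YAP-S127A and 189, 256 and 162 CPM in YAP-S5A. For Spp1 the test gave a log2 fold change of 3.41 ± 0.27 SE, edgeR adjusted p = 8.37e-08. Of 20 integrins 4 were higher (20%) and 3 lower (15%), shares near those of all genes tested. Itga4 had no count in TAZ-S89A and was at least 218-fold lower, whereas Itgb8, which activates latent TGF-beta, measured 13.2, 12.97, 9.97, 14.5 and 14.02 CPM in TAZ-S89A libraries 1 to 5, 2.87, 2.59 and 2.78 CPM in YAP-S127A and 0.214, 0.358 and 0.218 CPM in YAP-S5A. The difference of Itgb8 was a log2 fold change of 3.91 ± 0.16 SE, edgeR adjusted p = 9.88e-11.

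Epithelial structure genes were lower in the main. Of 10 keratins 5 were lower and separated (50%, beside 15.9% of all genes tested) and none higher. Krt7, a bile duct keratin, measured 1.04, 1.0, 2.49, 1.63 and 0.876 CPM in TAZ-S89A libraries 1 to 5, 93.7, 93.3 and 118 CPM in YAP-S127A and 1601, 2231 and 1398 CPM in YAP-S5A, with YAP-S5A highest (log2 fold change of -8.22 ± 0.35 SE, edgeR adjusted p = 1.77e-10), and Krt19 measured 4.32, 4.5, 9.92, 9.62 and 8.56 CPM in TAZ-S89A libraries 1 to 5, 48.9, 53.6 and 65.3 CPM in YAP-S127A and 1231, 1758 and 1124 CPM in YAP-S5A. Krt19 thus differed by a log2 fold change of -5.24 ± 0.30 SE, edgeR adjusted p = 3.74e-09. Krt23 had no count in TAZ-S89A and was at least 365-fold lower. Dsp, the desmosomal plaque protein, measured 0.259, 0.29, 0.522, 0.652 and 0.25 CPM in TAZ-S89A libraries 1 to 5, 16.5, 16.5 and 15.7 CPM in YAP-S127A and 27.4, 22.7 and 27.4 CPM in YAP-S5A (log2 fold change of -5.73 ± 0.21 SE, edgeR adjusted p = 5.31e-11), but the plaque protein Pkp1 was higher, with 25.8, 26.9, 22.7, 23.8 and 24.6 CPM in TAZ-S89A libraries 1 to 5, 0.401, 0.361 and 0.278 CPM in YAP-S127A and 2.65, 1.91 and 1.77 CPM in YAP-S5A. For Pkp1 the test gave a log2 fold change of 4.84 ± 0.14 SE, edgeR adjusted p = 6.78e-12. Cdh1, E-cadherin, was low in all lines and lowest in TAZ-S89A, with 0.189, 0.334, 0.841, 0.285 and 0.376 CPM in TAZ-S89A libraries 1 to 5, 12.6, 11.02 and 12.4 CPM in YAP-S127A and 1.66, 1.31 and 1.62 CPM in YAP-S5A. Cdh16, a kidney cadherin, was higher, with 8.8, 11.8, 8.03, 11.9 and 10.9 CPM in TAZ-S89A libraries 1 to 5, 0.134, 0.0656 and 0.0278 CPM in YAP-S127A and 0.267, 0.167 and 0.29 CPM in YAP-S5A. The difference of Cdh16 was a log2 fold change of 6.17 ± 0.24 SE, edgeR adjusted p = 6.98e-11. Tpm2, a muscle-type tropomyosin, measured 1.6, 1.16, 1.57, 1.18 and 0.626 CPM in TAZ-S89A libraries 1 to 5, 214, 238 and 266 CPM in YAP-S127A and 85.6, 128 and 76.7 CPM in YAP-S5A (log2 fold change of -6.92 ± 0.25 SE, edgeR adjusted p = 4.34e-11), and the intermediate filament Vim, abundant in all lines, was lower by a narrow 1.24-fold.

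Chemokines leaned upward, with 7 of 18 higher (38.9%) and 2 lower (11.1%) and separated, and a median log2 fold change of 1.60. Cxcl5, which attracts neutrophils, measured 152, 172, 148, 161 and 177 CPM in TAZ-S89A libraries 1 to 5, 3.99, 3.8 and 3.86 CPM in YAP-S127A and 23.4, 23.8 and 22.9 CPM in YAP-S5A. Cxcl5 thus differed by a log2 fold change of 4.09 ± 0.10 SE, edgeR adjusted p = 2.24e-12. Cxcl1, another neutrophil chemokine, measured 180.3, 195, 162, 122 and 129.8 CPM in TAZ-S89A libraries 1 to 5, 10.7, 9.12 and 10.3 CPM in YAP-S127A and 65.4, 49.3 and 55.2 CPM in YAP-S5A. For Cxcl1 the test gave a log2 fold change of 2.73 ± 0.15 SE, edgeR adjusted p = 1.74e-09. TAZ-S89A was highest in both, YAP-S5A intermediate and YAP-S127A lowest. Il1rn, the natural blocker of the IL-1 receptor, measured 81.3, 74.5, 90.2, 58.7 and 61.6 CPM in TAZ-S89A libraries 1 to 5, 1.11, 1.48 and 1.28 CPM in YAP-S127A and 1.95, 2.15 and 2.49 CPM in YAP-S5A (log2 fold change of 5.45 ± 0.15 SE, edgeR adjusted p = 4.14e-12), and Tnfrsf9, a costimulatory receptor, 19.4, 21.7, 23.6, 18.4 and 17.8 CPM in TAZ-S89A libraries 1 to 5, 0.423, 0.328 and 0.167 CPM in YAP-S127A and 1.04, 1.39 and 0.678 CPM in YAP-S5A. Il15, a growth factor for NK cells and memory T cells, was lower, with 0.0944, 0.111, 0.087, 0.0408 and 0.125 CPM in TAZ-S89A libraries 1 to 5, 15.1, 16.8 and 17.8 CPM in YAP-S127A and 14.5, 15.2 and 11.9 CPM in YAP-S5A and YAP groups close (log2 fold change of -7.28 ± 0.20 SE, edgeR adjusted p = 3.11e-12). Il33, an alarmin, measured 1.7, 2.67, 2.96, 3.67 and 3.21 CPM in TAZ-S89A libraries 1 to 5, 15.2, 16.2 and 19.6 CPM in YAP-S127A and 118, 171 and 120.4 CPM in YAP-S5A. Among 24 interferon-stimulated genes 2 were higher (8.33%) and 3 lower (12.5%), beside 12% and 15.9% of all genes tested. The number lower was 5 of the 24 with chromosome medians taken out, beside 2357 of all 18224 genes. Cgas, the cytosolic DNA sensor, measured 0.0944, 0.245, 0.087, 0.326 and 0.543 CPM in TAZ-S89A libraries 1 to 5, 22.3, 20.2 and 20.6 CPM in YAP-S127A and 4.78, 6.14 and 5.23 CPM in YAP-S5A. The difference of Cgas was a log2 fold change of -5.48 ± 0.30 SE, edgeR adjusted p = 1.82e-09.

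**Figure D4:**
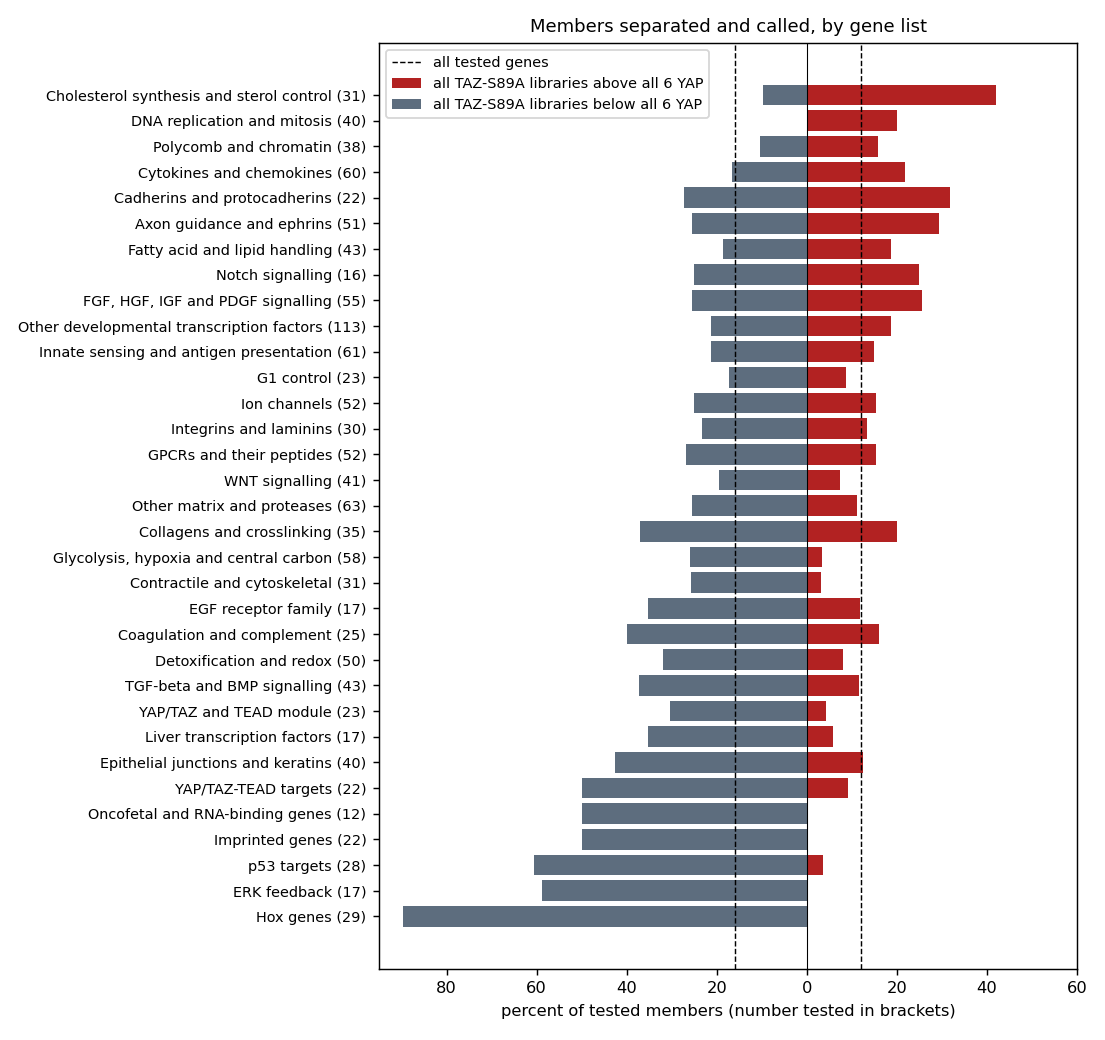
Share of the tested members of each of 33 gene lists that were separated and called in TAZ-S89A, higher to the right and lower to the left, in percent, with dashed lines at the 12% and 15.9% of all tested genes. Hox genes reach 89.7% lower and cholesterol genes 41.9% higher. The lists were chosen with earlier results of these data known.

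Over the 33 lists, 530 of 1237 tested genes were separated and called, beside 28.0% of all genes tested. The lists were chosen with such results known, so nothing is read from that excess. Separated genes were found at every level of abundance: the shares higher and lower were 10.3% and 15.6% among the genes of lowest average CPM, and 9.48% and 12.6% among those of highest, with genes split into 4 equal classes.

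Separated genes were unevenly spread over chromosomes, in stretches that reached whole chromosomes. On chromosomes 14, 9 and 7, 37.4%, 36.6% and 35.1% of tested genes were separated and lower, beside 15.9% over all, and the median log2 fold change of their genes was -0.67, -0.60 and -0.61. On chromosome 17, 27.7% were separated and higher, beside 12% over all, with a median of 0.59, which was 0.20 against YAP-S127A and 0.95 against YAP-S5A, and on chromosomes 5 and 8 the shares were 22.3% and 22.2%. In bins of 20 Mb, the median was below 0 in all 8 bins of chromosome 7 and all 7 of chromosome 9, and above 0 in all 5 of chromosome 17. On chromosome 14 it ranged from -1.21 to 0.10. The chromosome 7 median, as a log2 deviation from the mean of the libraries, was -0.47 to -0.39 in TAZ-S89A and 0.14 to 0.28 in the YAP libraries, which did not overlap. DNA copy number was not measured, and its part in these shifts was not tested. With the median of each chromosome and library taken out, a step chosen after the data were seen, 1665 of the 2193 genes higher (75.9%) and 2124 of the 2901 lower (73.2%) were still separated and called the same way.

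**Figure D5:**
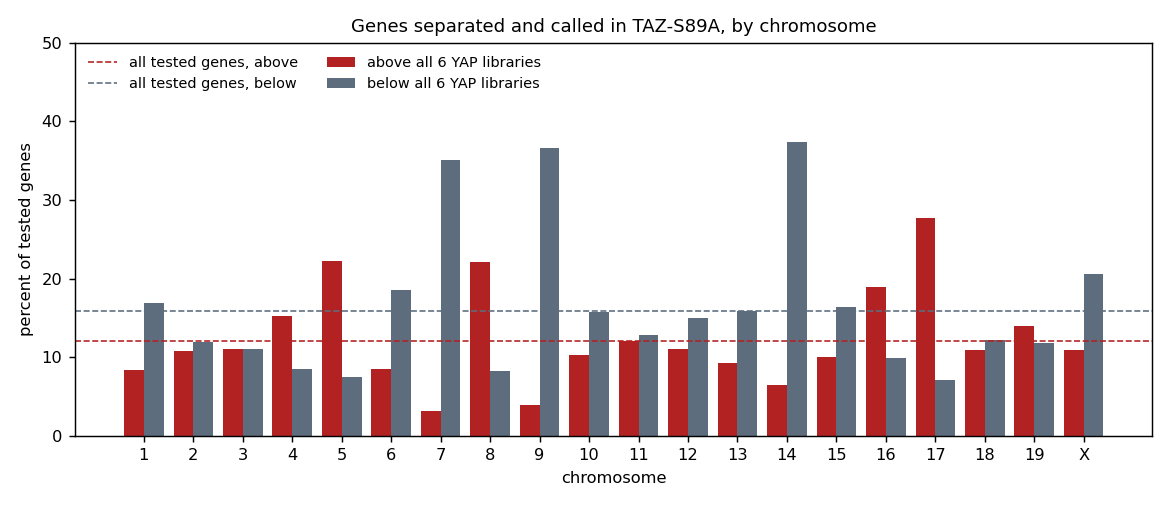
Percent of tested genes on each chromosome that were separated and called in TAZ-S89A, above (red) or below (grey) all 6 YAP libraries, with dashed lines at the shares of all tested genes, 12% and 15.9%. Chromosomes 7, 9 and 14 exceed 35% lower, and chromosome 17 reaches 27.7% higher.

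Gene-level reads can be shared where genes overlap, because the strand setting of the counting is not given. Among the genes named, this touches Igf2r (with Airn), Tpm2 (with Car9), Fstl3 (with Prss57), Gas6, Cdh22, S100g (with Ctps2), Snhg18, Itga4 (with Cerkl), Runx1, Runx2 (with Supt3), Snrpn (with Snurf), Ddb2 (with Acp2), Zmat3, Dusp6, Spred3 (with Ggn) and Hoxb6 (with Hoxb5os), whose values are uncertain to that extent.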

How the data were processed

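PolyA RNA of 11 mouse libraries was sequenced, and 1 table per library was used. The counts are reads that align uniquely to each Entrez gene model, deposited as raw whole numbers, per the file headers. The RPKM values beside them (nRPKM) were adjusted by size factors by the authors, per the file headers, and were not tested. The submitters' processing notes name GSNAP and GRCm38. No source used here gives the aligner version or whether counting used strand.

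Libraries were grouped by the mutation in their labels. In R 4.3.3, edgeR 4.0.16 (TMM, filterByExpr, robust quasi-likelihood fit over all 11 libraries) tested TAZ-S89A against the equally weighted mean of YAP-S127A and YAP-S5A, with Benjamini-Hochberg adjustment at 0.05. The filter kept 18224 of 36528 gene IDs and removed 18304. Symbols and positions came from RefSeq's GRCm38.p6 annotation, which matched 31049 IDs. The other 5479 held 2.91% of counts and stayed in the totals. Self-tests on simulated counts were run first.

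Genes were named by these rules: the YAP, TAZ and TEAD core with Ccn1, Ccn2, Ankrd1 and Amotl2; the 12 separated and called genes each way with the widest gap at an average log2 CPM of at least 2; the 8 each way with the widest gap whose YAP groups lay within 0.5 log2; and, per list, up to 4 separated members with the widest gap and 2 called but not separated. A few genes that these rules name are not reported here. Any other gene in the text was picked with its values in view. The members and lists were chosen with earlier results of these data known. Against a group with no counts a fold is a lower bound from a floor of 3 counts over the group, and pooled ratios carry 95% intervals, both for counting error only. Alternatives were RLE, upper-quartile and library-total scaling, DESeq2 1.42.0, limma 3.58.1 (voom), 2 other low-count filters and a fold minimum. Others left out each library or the second ID series, summed the close pairs of TAZ-S89A only, or took the ID series as a covariate. Centring chromosome medians and the alternatives of the pairwise comparisons were chosen after seeing the data.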

Additional observations from a re-analysis of the deposited data

Results flagged for a closer look

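In 17 of 197 genes named in the text, 1 TAZ-S89A library stood apart from the other 4 by Dixon's ratio (critical value 0.71 for 5 samples). Chance alone picks out about 1 in 20 groups of independent samples. These libraries may not be independent, since 1 and 2 and also 4 and 5 form close pairs, and genes are not independent. A library of a close pair seldom lies far from its partner. Library 3, which has no close partner, was the one apart in 11 of the 17, a lead that the pairing favours. It was highest for the sterol genes Cyp51 (316 CPM), Mvd (44.0 CPM) and Stard4 (91.2 CPM), for the p53 targets Ccng1 (161 CPM) and Mdm2 (113 CPM), and for Fstl1 (164 CPM), Id3 (29.1 CPM) and Cdh1 (0.841 CPM). It was lowest for Tead1 (78.0 CPM) and Rbms3 (3.91 CPM), and for Pcolce2 it stood apart at 29.1 CPM. Library 4 was apart for Peg3 (2.49 CPM) and library 2 for Lin28b (0.111 CPM). For Adm and Alb (0.0223 CPM each, library 2) and for Car12 and Hoxb13 (0.0417 CPM each, library 5) the value is a single count in a group otherwise at 0.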

How the results depend on the processing

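No paired analysis was possible because the labels carry no replicate numbers that groups share. Leaving out 1 library at a time gave 4749 to 5571 genes called higher and 5184 to 5586 lower, 2251 to 2866 separated higher and 2871 to 3317 lower, and 2234 to 2850 and 2850 to 3297 both separated and called. It gave 9020 to 10920 calls against YAP-S127A, 9451 to 11154 against YAP-S5A and 8778 to 10724 between the YAP groups. A fold minimum of 2 left 1932 genes called higher and 3190 lower, of which 1226 and 2153 were also separated. Asking for sides at least 2-fold apart left 441 separated higher and 1070 lower. With library totals only, 7139 were called higher, with a median of 0.22 over all genes. With chromosome medians taken out, the members higher became 1 for TEAD targets, 7 for WNT, 2 for T-box and RUNX genes, 5 for lipid handling and 1 for detoxification, and the members lower became 5 for WNT, 2 for laminins, 5 for interferon-stimulated genes and 1 for Eph receptors. In that setting Ajuba had a log2 fold change of 0.055 and Ccnd3 of -0.10, both opposite in sign to the values without centring. Of 179 named genes that were separated and called, 169 kept both in that setting. The strict low-count filter tested 163 of them. Depth limited the size of the widest losses: 125 of the genes lower had no count in any TAZ-S89A library, so that their fold can be given only as a bound.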

Other observations

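Axon guidance genes were separated in both directions. Of 51 tested members 15 were higher (29.4%) and 13 lower (25.5%) and separated, beside 12% and 15.9% of all genes tested. Of 10 Eph receptors, which bind membrane-bound ephrins, 4 were higher (40%) and 2 lower (20%). Ephb1 had no count in any YAP library and 2.95, 2.87, 2.75, 3.3 and 4.3 CPM in TAZ-S89A, at least 242-fold higher. Epha7 measured 19.5, 20.3, 15.8, 25.8 and 25.04 CPM in TAZ-S89A libraries 1 to 5, 2.67, 3.12 and 3.06 CPM in YAP-S127A and 0.962, 1.27 and 1.43 CPM in YAP-S5A. The difference of Epha7 was a log2 fold change of 3.48 ± 0.16 SE, edgeR adjusted p = 2.96e-10. In the complement system 4 of 14 were higher (28.6%) and 6 lower (42.9%) and separated. The central component C3 measured 10.6, 11.6, 7.36, 37.5 and 38.98 CPM in TAZ-S89A libraries 1 to 5, 0.0669, 0.0328 and 0.0833 CPM in YAP-S127A and 1.55, 1.65 and 1.72 CPM in YAP-S5A, with TAZ-S89A libraries 4 and 5 above 1 to 3, whereas C2 measured 0.236, 0.223, 0.232, 0.163 and 0.25 CPM in TAZ-S89A libraries 1 to 5, 13.4, 10.6 and 10.1 CPM in YAP-S127A and 15.3, 13.7 and 17.8 CPM in YAP-S5A. The difference of C2 was a log2 fold change of -5.88 ± 0.18 SE, edgeR adjusted p = 7.16e-12. Among 8 enzymes that make or degrade lipid mediators, 4 were lower and separated (50%), Ptges, Sphk1, Hpgd and Ptgs1. None was higher and separated, and 1 was called higher. The prostaglandin E synthase Ptges measured 0.354, 0.379, 0.29, 0.612 and 0.918 CPM in TAZ-S89A libraries 1 to 5, 19.97, 22.6 and 25.4 CPM in YAP-S127A and 216, 255 and 198 CPM in YAP-S5A. The difference of Ptges was a log2 fold change of -7.20 ± 0.25 SE, edgeR adjusted p = 2.56e-11.

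Runs of neighbouring genes went the same way beyond the Hox clusters. Counting tested genes in genomic order, 29 runs of at least 3 genes lower and 11 runs higher with gaps of at least 1 were found. The 29 include the Hox runs. Over all genes tested, 5.87% were lower and 2.42% higher with such a gap. The longest run higher was 6 interferon-inducible GTPase genes of the Gbp family on chromosome 5, from Gbp8 to Gbp11. Gbp6 measured 4.69, 5.73, 4.35, 2.65 and 2.13 CPM in TAZ-S89A libraries 1 to 5, 0.134, 0.0656 and 0.194 CPM in YAP-S127A and 0.134, 0.239 and 0.194 CPM in YAP-S5A (log2 fold change of 4.60 ± 0.32 SE, edgeR adjusted p = 2.88e-08), but these genes are near copies of each other and may share reads. On the X chromosome 4 neighbouring armadillo repeat genes, Armcx1, Armcx6, Armcx3 and Armcx2, were lower, Armcx1 with 0.0472, 0.111, 0.116, 0.0815 and 0.0835 CPM in TAZ-S89A libraries 1 to 5, 26.9, 26.6 and 26.7 CPM in YAP-S127A and 7.3, 8.51 and 9.39 CPM in YAP-S5A. The difference of Armcx1 was a log2 fold change of -7.36 ± 0.19 SE, edgeR adjusted p = 2.51e-12.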
